A study of Oryza sativa with 12 samples.

Results

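The rice defence genes described here are 7 loci of the 42004 in a deposited expression table: the regulator NPR1 (LOC_Os01g09800), the PR1 proteins PR1a (LOC_Os07g03710) and PR1b (LOC_Os01g28450), and 4 members of the PR10 family. The PR10 members are PBZ1 (LOC_Os12g36880), LOC_Os12g36830, LOC_Os12g36850 and JIOsPR10 (LOC_Os03g18850). They were chosen by locus identifier. Of the 7 loci, 5 passed the filter on low values and were tested among 20305 loci, while PR1a and PR1b did not pass.

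Poly(A) RNA of whole rice seedlings (Oryza sativa) was sequenced in 12 libraries, 3 in each of 4 groups. The groups were dm_45C and dm_29C, the libraries labelled as the grp3/grp162 double mutant with heat at 45 °C and without heat at 29 °C, and WT_45C and WT_29C, the japonica cultivar ZH11 under the same conditions. GRP3 and GRP162 are the genes named in the mutant's title. The double mutant is given as a single line in the titles, although the final number of the genotype label differs between its replicates. All seedlings were 8 days old and were raised in Kimura B nutrient solution at 29 °C, 65% humidity and 13 h of light a day. For the length of the heat, the characteristics read 18 h but the protocol 42 h, so it is not settled by the labels. The labels do not say that the 3 libraries of a group came from separate cultures, so the p-values reflect spread among these libraries that may be technical.

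NPR1 is known from Arabidopsis as a salicylic acid receptor that acts in the nucleus as a coactivator of TGA-type transcription factors and turns on pathogenesis-related (PR) genes; rice NPR1, also called NH1, has a like role in resistance to bacterial blight. PR1 proteins are small secreted proteins that serve as markers of defence, and PR10 proteins are small cytosolic proteins related to the birch pollen allergen Bet v 1. In rice, PBZ1 is named for its induction by the resistance inducer probenazole, and JIOsPR10 for its induction by jasmonic acid.

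The labels were first set against the targeted genes. In FPKM, a unit of fragments per transcript length and per library size, GRP162 was at 12466, 746.38 and 698.71 in dm_45C and at 3287.66, 217.76 and 264.78 in dm_29C, against 2368.25, 1604.88 and 3719.78 in WT_45C and 1120.91, 1002.06 and 1033.19 in WT_29C. Replicate 1 of both groups labelled double mutant was thus above every wild-type library at its temperature, and replicates 2 and 3 were below every one. GRP3 was at 17604, 10888 and 14023 FPKM in dm_45C and at 4340.13, 1086.39 and 1354.91 FPKM in dm_29C, against 14427 to 16321 FPKM in WT_45C and 3878.55 to 5488.51 FPKM in WT_29C. Its replicate 1 was above every wild-type library at 45 °C and within the wild-type range at 29 °C. Replicates 2 and 3 were below every wild-type library at both temperatures. The values of replicate 1, of GRP162 at both temperatures and of GRP3 at 45 °C, go against the label. Comparisons of genotype below are therefore comparisons of libraries by their label. The column code of the mutant libraries occurs in no label, and these columns were assigned by elimination once the wild-type columns had been matched. Total FPKM was 558435 to 599861 per library, and the depth in reads is unknown. The summed level of 5 leaf markers was 1869.52 to 4820.98 FPKM in dm_45C and 5868.5 to 7823.29 FPKM in dm_29C, against 2457.66 to 4074.19 FPKM in WT_45C and 3679.7 to 9807.22 FPKM in WT_29C. Of 8 root markers 1, the silicon channel gene Lsi1, passed the filter, and RCc3 and NRT2.1 were at 0 in all 12 libraries, although the label reads whole plant. The summed root markers were at 3.98 to 12.77 FPKM in dm_45C and 36.74 to 52.77 FPKM in dm_29C, against 2.57 to 2.95 FPKM in WT_45C and 25.47 to 39.55 FPKM in WT_29C. Lsi1 fell with heat by 3.05 on the log2 scale in the double mutant and by 3.49 in the wild type (limma adjusted p = 3.2e-05 and 1.5e-05). Not all root markers below the filter fell. Mean PIP2;3 was 1.68 FPKM in dm_45C and 0 in dm_29C, against 0.33 in WT_45C and 0.20 in WT_29C. In the same order PIP2;5 was at 1.35, 0.13, 0.59 and 0.30 FPKM, and IRT1, lower with heat, at 0.16, 0.46, 0.07 and 0.46 FPKM. The part of tissue makeup in the heat differences below was not tested.

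NPR1 was expressed in all 12 libraries at a moderate level, and no tested difference of heat or genotype passed in it. Its level was 7.34, 5.36 and 11.98 FPKM in dm_45C, against 11.07, 8.67 and 9.93 FPKM in dm_29C. In the wild type it was 7.23, 4.70 and 18.85 FPKM in WT_45C, against 11.24, 9.39 and 13.30 FPKM in WT_29C. In both genotypes, replicates 1 and 2 at 45 °C were below all 3 libraries at 29 °C, and replicate 3 was above all of them. Means were 8.23 ± 3.40 FPKM in dm_45C, 9.89 ± 1.20 FPKM in dm_29C, 10.3 ± 7.55 FPKM in WT_45C and 11.3 ± 1.96 FPKM in WT_29C (SD, n = 3 each). Differences are given on the log2(FPKM + 1) scale, which understates the change of genes near 0, and an adjusted p under 0.05 counts as passing. With heat the difference of NPR1 was -0.30 ± 0.38 (SE) in the double mutant (limma adjusted p = 0.591) and -0.32 ± 0.38 in the wild type (limma adjusted p = 0.566).

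Averaged over both genotypes, the call of NPR1 turned on a single library. The averaged heat difference was -0.31 ± 0.27 (SE; limma adjusted p = 0.373). Without WT_45C replicate 3 it was -0.57 (limma adjusted p = 0.0355), and without replicate 3 of both 45 °C groups it was -0.70 (limma adjusted p = 0.00751), an alternative chosen after the data were seen. In the wild type alone the difference was -0.83 without WT_45C replicate 3 (limma adjusted p = 0.0593) and -0.83 without both 45 °C replicate 3 libraries (limma adjusted p = 0.0289), and it was 0.066 without WT_45C replicate 2. In bulk seedlings, fewer cells that express a gene and less RNA per cell cannot be told apart.

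PR1a and PR1b, whose proteins are commonly used as markers of the salicylic acid response, were close to 0. PR1a was above 0 in 4 of 12 libraries, at 0.06 FPKM in dm_45C replicate 3, 0.04 FPKM in dm_29C replicate 3, 0.06 FPKM in WT_45C replicate 2 and 1.34 FPKM in WT_29C replicate 1. PR1b was above 0 in 3 of 12 libraries, at 0.09 and 0.68 FPKM in dm_45C replicates 1 and 3 and at 0.45 FPKM in WT_45C replicate 3. The 3 libraries with PR1b above 0 were all at 45 °C, and 3 other 45 °C libraries were at 0. Neither locus was tested, and since depth is unknown a value of 0 says only that the locus is listed at 0.

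JIOsPR10 was the member with the clearest difference: it was near 0 at 29 °C and above 10 FPKM in every 45 °C library. Its level was 27.69, 62.21 and 56.76 FPKM in dm_45C, against 0.10, 1.04 and 0.41 FPKM in dm_29C. In the wild type it was 17.46, 10.93 and 67.47 FPKM in WT_45C, against 1.48, 0 and 0.53 FPKM in WT_29C. The lowest 45 °C library, at 10.93 FPKM, was above the highest 29 °C library, at 1.48 FPKM, so the temperatures did not overlap in either genotype; 23.7% of tested loci were higher in dm_45C and 19.2% in WT_45C in this way. A separation of all 6 libraries at 45 °C above all 6 at 29 °C was found in 10.8% of the loci tested. Means were 48.9 ± 18.6 FPKM in dm_45C, 0.517 ± 0.479 FPKM in dm_29C, 32.0 ± 30.9 FPKM in WT_45C and 0.67 ± 0.75 FPKM in WT_29C (SD, n = 3 each), a ratio of means of 94.6 in the double mutant and 47.7 in the wild type.

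JIOsPR10 rose with heat in both genotypes. The log2 difference was 5.00 ± 0.56 (SE; limma adjusted p = 6.3e-05) in the double mutant and 3.99 ± 0.56 (SE; limma adjusted p = 0.000321) in the wild type, where it was 3.25 without WT_45C replicate 3. It was the 1 member of 5 tested that passed in either heat comparison, against a background of 31.7% of all tested loci called in the double mutant and 29.1% in the wild type (15.3% and 13.3% upward). Averaged over both genotypes its difference was 4.50 ± 0.40 (SE; limma adjusted p = 3.3e-06), again the single member called, where 47.1% of all loci were (22.4% upward). Because 29 °C values lie near 0, the size depends on the added 1: with 0.1 added instead, the difference was 6.56 in the double mutant and 5.67 in the wild type.

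The call of JIOsPR10 did not depend on the replicate 1 libraries that go against their label. Without both of them the heat difference in the double mutant was 5.15. Between genotypes the difference of JIOsPR10 was 0.93 at 45 °C (95% interval -0.28 to 2.14; limma adjusted p = 0.710) and -0.09 at 29 °C (-1.30 to 1.13; limma adjusted p = 0.987). The difference between its heat responses was 1.02 (-0.70 to 2.73; limma adjusted p = 0.974), an interval that also holds a larger response in either genotype.

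**Figure D1:**
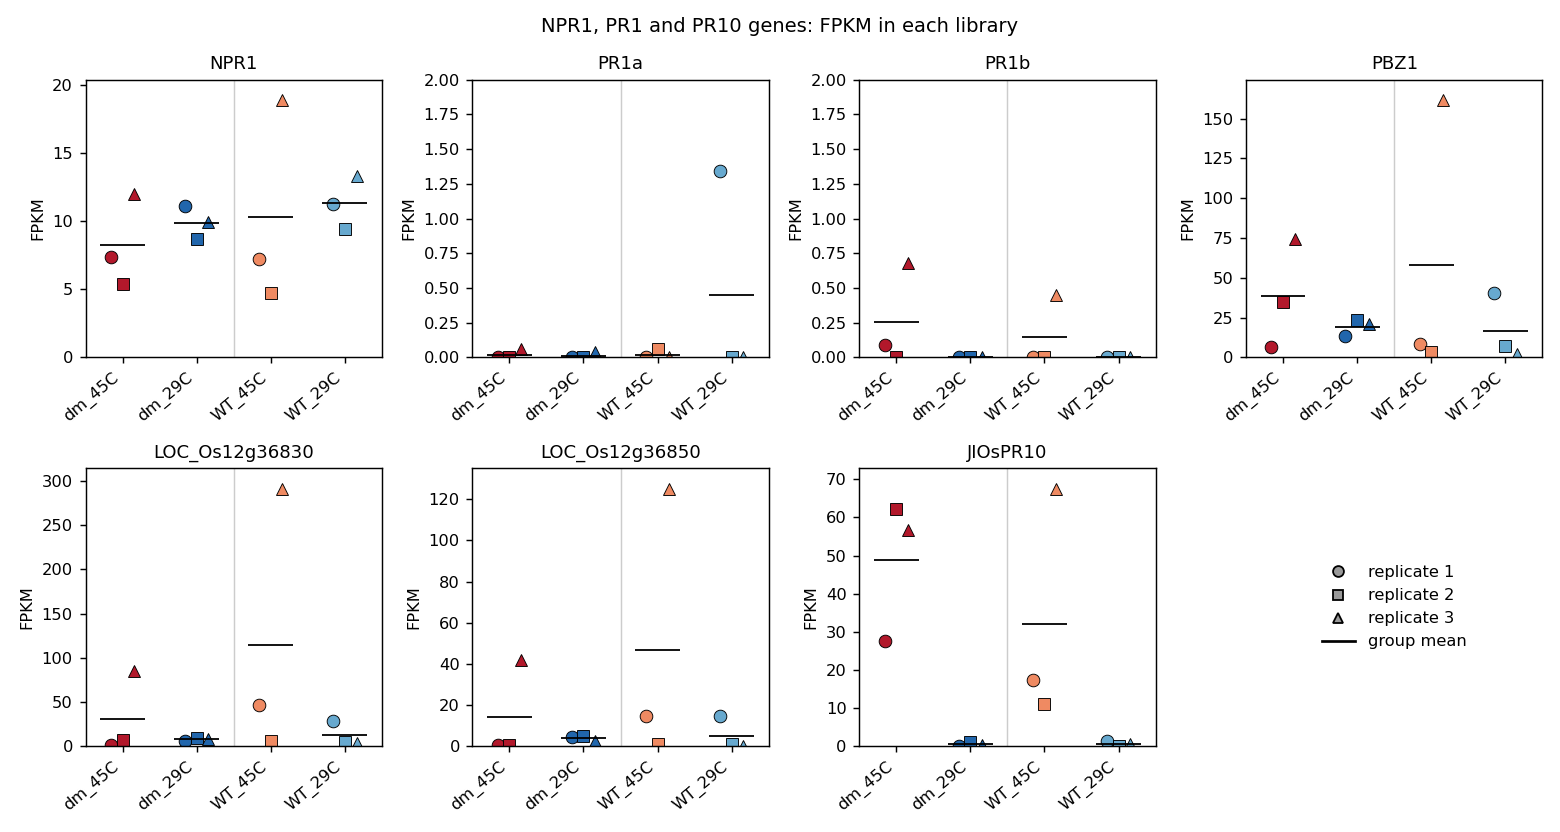
FPKM of the 7 genes in each of the 12 libraries, by group, with a black line at the mean of 3 libraries and a shape for each replicate number. JIOsPR10 is at 10.93 to 67.47 FPKM in the 45 °C libraries and at 0 to 1.48 FPKM in the 29 °C libraries, while PBZ1, LOC_Os12g36830 and LOC_Os12g36850 reach their highest values of 161.46, 290.94 and 125.02 FPKM in WT_45C replicate 3.

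The 3 PR10 loci on chromosome 12 varied widely between libraries of the same 45 °C group, and none of them passed in any comparison. PBZ1, the probenazole-induced gene used as a defence marker in rice, was at 6.87, 35.07 and 74.46 FPKM in dm_45C, against 13.29, 23.78 and 21.18 FPKM in dm_29C. Wild-type libraries had PBZ1 at 8.27, 3.70 and 161.46 FPKM in WT_45C, against 40.42, 6.96 and 2.47 FPKM in WT_29C. Its highest value was in a 45 °C library in each genotype, and the temperatures overlapped in both. The highest library was 10.8 times the lowest in dm_45C, 1.79 times in dm_29C, 43.6 times in WT_45C and 16.4 times in WT_29C. The sources used here do not give how reads shared between these related genes were counted, so a split of reads among them cannot be judged.

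LOC_Os12g36830, a further PR10 gene of that cluster, was at 1.19, 7.32 and 84.82 FPKM in dm_45C, against 5.35, 9.51 and 7.70 FPKM in dm_29C. In the wild type it was at 46.60, 5.43 and 290.94 FPKM in WT_45C, against 28.13, 4.93 and 4.05 FPKM in WT_29C. Replicate 3 was the highest at 45 °C in both genotypes, and the temperatures overlapped in both. LOC_Os12g36850, also of the PR10 family, was at 0.51, 0.39 and 41.75 FPKM in dm_45C, against 4.45, 5.12 and 2.31 FPKM in dm_29C. Wild-type libraries had 14.54, 1.12 and 125.02 FPKM in WT_45C, against 14.43, 0.82 and 0 FPKM in WT_29C. In the double mutant, replicates 1 and 2 at 45 °C lay below all 3 libraries at 29 °C, with replicate 3 above them.

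The tests of these 3 loci rested on that spread. With heat in the double mutant the log2 difference was 0.48 ± 1.21 (SE) for PBZ1, 0.48 ± 1.34 for LOC_Os12g36830 and -0.10 ± 1.50 for LOC_Os12g36850, with limma adjusted p-values of 0.791, 0.815 and 0.967. The wild-type values were 0.88 for PBZ1, 2.23 for LOC_Os12g36830 and 2.40 for LOC_Os12g36850, with limma adjusted p-values of 0.624, 0.235 and 0.254. The intervals of 95% were wide, -0.68 to 5.13 for LOC_Os12g36830 in the wild type and -2.43 to 3.38 in the double mutant. Without dm_45C replicate 3 the values in the double mutant were -0.24 for PBZ1, -0.97 for LOC_Os12g36830 and -1.73 for LOC_Os12g36850. Without WT_45C replicate 3 the values in the wild type were -0.66 for PBZ1, 0.87 for LOC_Os12g36830 and 0.92 for LOC_Os12g36850, so that the direction of PBZ1 turned in both genotypes.

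**Figure D2:**
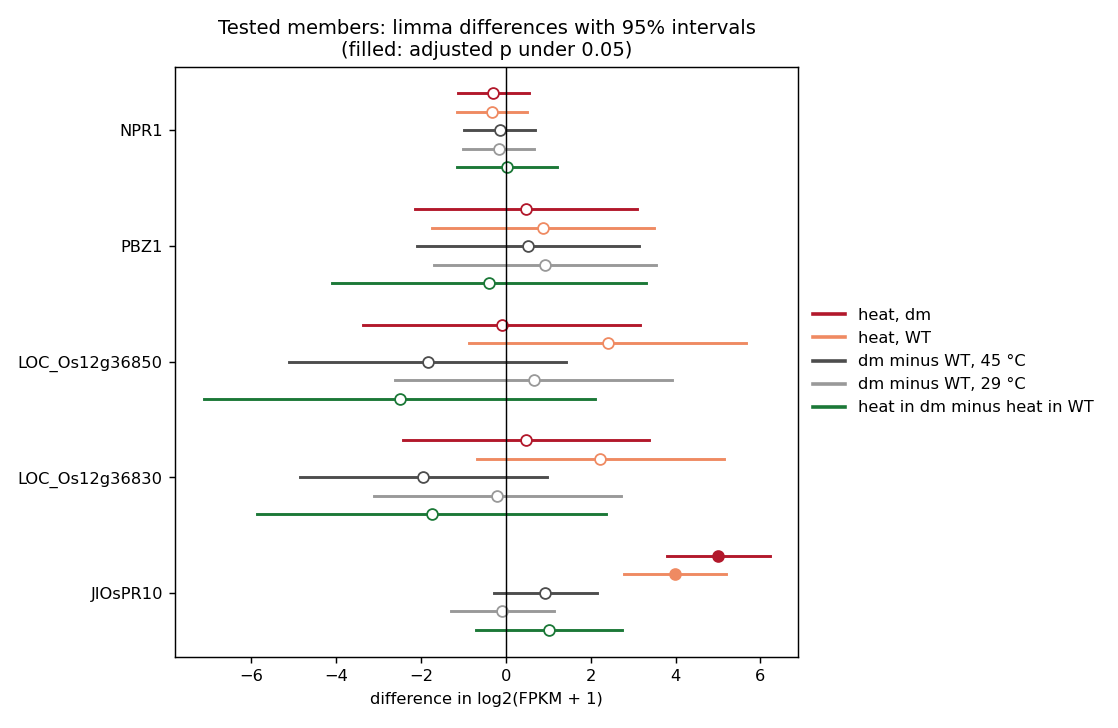
Differences in log2(FPKM + 1) of the 5 tested genes in 5 comparisons, as points with 95% intervals; filled points have a limma adjusted p under 0.05. JIOsPR10 with heat, at 5.00 in the double mutant and 3.99 in the wild type, holds the filled points, and the intervals of the 3 chromosome 12 loci span several log2 units across 0.

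Between the libraries labelled double mutant and the wild type, none of the 5 tested members passed at either temperature. By limma the count was 0 at 45 °C, where 0.0197% of all loci were called, and 0 at 29 °C, where 0.241% were. At an unadjusted p under 0.05 the count of members was also 0 at both, against 1618 of 20305 loci at 45 °C and 1985 at 29 °C. The titles give a replicate number but no pairing, while at 45 °C same-numbered libraries of both genotypes deviated together weakly (r = 0.106, 0.293 and 0.141). With that number as a block, calls over all loci went down to 1, against 4 without it, in the fit of all 12 libraries. In a fit of the 45 °C libraries alone there were 8 calls with the block and 8 without it. The 45 °C differences were -0.15 for NPR1 (95% interval -0.98 to 0.69), 0.53 for PBZ1 (-2.08 to 3.15), -1.95 for LOC_Os12g36830 (-4.85 to 0.96) and -1.84 for LOC_Os12g36850 (-5.11 to 1.42). At 29 °C they were -0.17 for NPR1, 0.93 for PBZ1, -0.20 for LOC_Os12g36830 and 0.66 for LOC_Os12g36850. The intervals of the 3 chromosome 12 loci at 45 °C each spanned more than 5 log2 units and included 0.

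The heat responses of the genotypes were compared directly as well. The difference of the responses was 0.03 for NPR1 (95% interval -1.15 to 1.20), -0.39 for PBZ1, -1.75 for LOC_Os12g36830 and -2.50 for LOC_Os12g36850 (-7.12 to 2.11). No member passed by limma, where 0.0148% of all loci were called. No member had an unadjusted p under 0.05 either, where 1039 of 20305 tested loci did. Averaged over both temperatures, the genotype difference passed in no member either, where 0.34% of all loci were called. At an unadjusted p under 0.05 it was also found in no member, against 2512 of 20305 tested loci.

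Ordered by level within a group, the FPKM scale being per transcript length, the members changed places between temperatures. In dm_45C the order of means was JIOsPR10 at 48.9, PBZ1 at 38.8, LOC_Os12g36830 at 31.1, LOC_Os12g36850 at 14.2 and NPR1 at 8.23 FPKM, and each of these overlapped its neighbour in the order. In dm_29C it was PBZ1 at 19.4, NPR1 at 9.89, LOC_Os12g36830 at 7.52, LOC_Os12g36850 at 3.96 and JIOsPR10 at 0.517 FPKM. There NPR1 overlapped LOC_Os12g36830, and the other neighbours did not overlap. In WT_45C the order was LOC_Os12g36830 at 114, PBZ1 at 57.8, LOC_Os12g36850 at 46.9, JIOsPR10 at 32.0 and NPR1 at 10.3 FPKM, all overlapping their neighbours. In WT_29C it was PBZ1 at 16.6, LOC_Os12g36830 at 12.4, NPR1 at 11.3, LOC_Os12g36850 at 5.08 and JIOsPR10 at 0.67 FPKM, again with overlap between neighbours. PR1a and PR1b had the lowest means in every group. By medians the order was another in dm_45C, WT_45C and WT_29C. In dm_45C the median of NPR1, 7.34 FPKM, was above those of LOC_Os12g36830 at 7.32 and LOC_Os12g36850 at 0.51 FPKM. In WT_45C the median of JIOsPR10, 17.46 FPKM, was above those of LOC_Os12g36850 at 14.54 and PBZ1 at 8.27 FPKM. In WT_29C the median of NPR1, 11.24 FPKM, was above those of PBZ1 at 6.96 and LOC_Os12g36830 at 4.93 FPKM.

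Replicate 3 at 45 °C was set against all loci. WT_45C replicate 3 was the highest of its group in 19.2% of tested loci, but in 5 of the 5 tested members and in 13 of 14 tested genes of other PR families. Among lists described below, it was also highest in 8 of 14 salicylic acid genes, 6 of 9 jasmonate genes and 6 of 8 genes of pattern-triggered immunity. It was more than 4 times both other libraries in 1.0% of tested loci, among them PBZ1, LOC_Os12g36830 and LOC_Os12g36850. dm_45C replicate 3 was the highest of its group in 34.1% of tested loci, in 4 of the 5 members and in 6 of the 14 other PR genes. In the lists described below it was highest in 10 of 14, 2 of 9 and 3 of 8, in the same order. It was more than 4 times both others in 0.813% of loci, LOC_Os12g36830 and LOC_Os12g36850 among them. At 29 °C, WT_29C replicate 1 was more than 4 times both others in 0.443% of loci, including those 3 chromosome 12 members. It was the highest of its group in 4 of the 5 members and 31.4% of tested loci, and dm_29C replicate 2 likewise in 4 of the 5 members and 40.01% of tested loci. The leaf marker sum was 2667.98 FPKM in dm_45C replicate 3 and 2754.26 FPKM in WT_45C replicate 3, in both cases between the other libraries of the group. The part of depth or handling in these libraries was not tested.

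**Figure D3:**
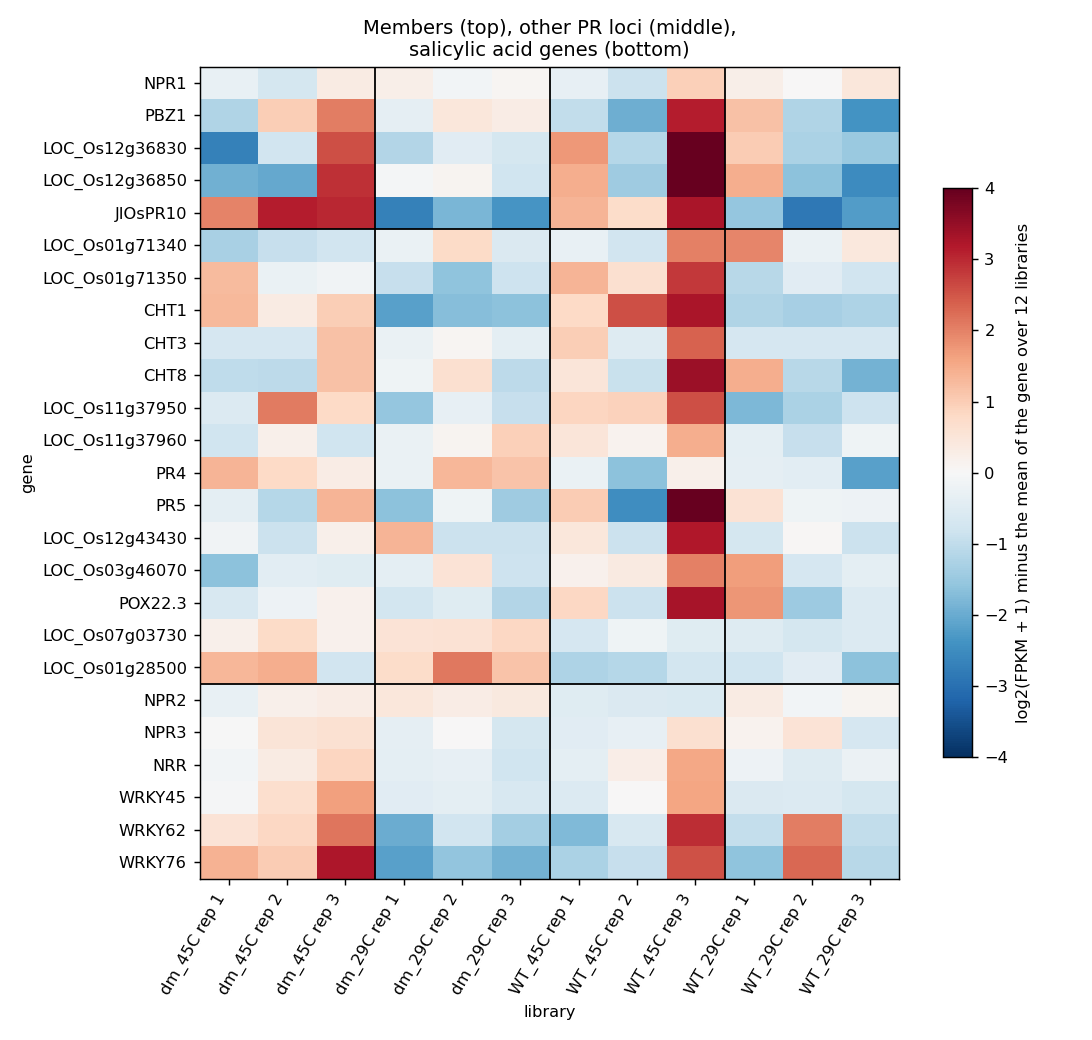
Heat map of log2(FPKM + 1) minus the gene's mean over 12 libraries, with libraries in columns. Rows are the tested members, the tested other PR genes and, of the salicylic acid list, only NPR2, NPR3, NRR, WRKY45, WRKY62 and WRKY76. The colours stop at -4 and 4. JIOsPR10 is high in all 45 °C columns, while the chromosome 12 PR10 genes and several other PR genes, such as PR5 at 399.46 FPKM, stand out in WT_45C replicate 3.

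Loci close in number to the PR10 members were looked at next, as neighbours by identifier since no build is given. LOC_Os12g36860, between LOC_Os12g36850 and PBZ1, was at 0, 0 and 12.44 FPKM in dm_45C and 0.44, 0.24 and 0.20 FPKM in dm_29C, against 9.90, 0.31 and 50.29 FPKM in WT_45C and 1.31, 0.17 and 0 FPKM in WT_29C. At 45 °C it was highest in replicate 3 of both genotypes, as the PR10 genes on chromosome 12 were, and its heat differences, 0.88 in the double mutant and 2.69 in the wild type, did not pass (limma adjusted p = 0.592 and 0.0968). LOC_Os12g36870, next to PBZ1, had a much narrower spread within groups: it was at 28.19 to 32.08 FPKM in dm_45C and 24.33 to 26.03 FPKM in dm_29C, against 32.90 to 45.74 FPKM in WT_45C and 23.63 to 25.37 FPKM in WT_29C. It rose with heat by 0.62 on the log2 scale in the wild type (limma adjusted p = 0.00898), and its difference in the double mutant was 0.25 (limma adjusted p = 0.237). LOC_Os12g36900 and LOC_Os12g36910, also near PBZ1, rose in the double mutant by 0.55 and 0.96 (limma adjusted p = 0.0373 and 0.0481). In the wild type neither passed (limma adjusted p = 0.576 and 0.180). LOC_Os12g36910 was highest in replicate 3 of both 45 °C groups, at 15.54 FPKM in dm_45C and 9.45 FPKM in WT_45C. Near JIOsPR10, LOC_Os03g18870 averaged 322 ± 34.5 FPKM in dm_45C and 21.3 ± 3.74 FPKM in dm_29C, against 201 ± 15.7 FPKM in WT_45C and 24.2 ± 14.0 FPKM in WT_29C (SD, n = 3 each). It rose with heat by 3.86 in the double mutant and 3.14 in the wild type on the log2 scale (limma adjusted p = 7.7e-06 and 2.5e-05), and was chosen after its values were seen. Over all tested loci 31.7% were called with heat in the double mutant and 29.1% in the wild type. The other tested loci near JIOsPR10, LOC_Os03g18810, LOC_Os03g18820, LOC_Os03g18830, LOC_Os03g18840 and LOC_Os03g18890, passed in neither genotype (lowest limma adjusted p = 0.0927). Averaged over both, LOC_Os03g18830 passed at 0.51 (limma adjusted p = 0.0187).

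The loci outside the members whose pattern was most like each member were named by Pearson's r of log2(FPKM + 1) over the 12 libraries. The candidates were 13034 loci with a mean of 5 FPKM or more. Members were left out of them, so the likeness of members to each other is not given. These r values describe 12 libraries that share 4 groups. For JIOsPR10 they were LOC_Os01g64300 (r = 0.977), LOC_Os07g12890 (r = 0.969) and LOC_Os04g47360 (r = 0.964). For LOC_Os12g36830 they were LOC_Os12g36860 (r = 0.950), LOC_Os03g29930 (r = 0.941) and LOC_Os02g37330 (r = 0.925). For LOC_Os12g36850 they were the chitinase gene CHT8 (LOC_Os10g39680, r = 0.957), LOC_Os03g29930 (r = 0.951) and LOC_Os12g36860 (r = 0.924). PBZ1 was most like LOC_Os06g03580 (r = 0.884), LOC_Os01g64440 (r = 0.859) and LOC_Os12g05420 (r = 0.849). NPR1 was most like LOC_Os12g06220 (r = 0.901), LOC_Os10g33140 (r = 0.901) and LOC_Os06g36270 (r = 0.877). LOC_Os12g36830 and LOC_Os12g36850 thus shared 2 of their 3 nearest loci outside the members.

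Genes that act with NPR1 in salicylic acid signalling moved in both directions with heat. Averaged over both genotypes, 4 of 14 rose and 3 fell, with a median log2 difference of 0.30 against -0.02 over all tested loci. Among all tested loci 22.4% rose and 24.7% fell in this comparison, so the shares of the list were near the background. The 4 that rose were SGT1, a co-chaperone of immune receptors, at 0.58 ± 0.13 (SE; limma adjusted p = 0.00307), the transcription factor WRKY45 at 1.10 ± 0.33 (limma adjusted p = 0.0163), NRR, an NPR1-binding repressor, and WRKY76. The call of WRKY76 was lost in 15 of 24 alternative settings (limma adjusted p up to 0.407) and that of NRR in 7 of 24 (limma adjusted p up to 0.209). WRKY45 was at 38.09, 62.83 and 125.34 FPKM in dm_45C and at 25.10 to 29.67 FPKM in dm_29C, against 26.86, 39.75 and 120.45 FPKM in WT_45C and 23.89 to 26.76 FPKM in WT_29C. Replicate 3 was again the highest at 45 °C in both genotypes, and without all 4 replicate 3 libraries, an alternative chosen after the data were seen, the adjusted p of WRKY45 was 0.0766 by limma. The 3 that fell were TGA2.1, a TGA factor that binds NPR1, at -0.53 ± 0.12 (limma adjusted p = 0.00292), the NPR1 paralogue NPR2 at -0.49 ± 0.13 (limma adjusted p = 0.00646), and EDS1, whose call was lost in 4 of 24 settings (limma adjusted p up to 0.172). NPR2 averaged 29.0 ± 6.12 FPKM in dm_45C and 35.7 ± 1.99 FPKM in dm_29C, against 17.9 ± 0.911 FPKM in WT_45C and 29.4 ± 4.56 FPKM in WT_29C (SD, n = 3 each). NPR2, NRR, WRKY76 and EDS1 were chosen after their values were seen. Averaged over both genotypes, the counts were 2 up and 3 down without WT_45C replicate 3, and 1 up and 2 down without all 4 replicate 3 libraries. In the wild type alone SGT1 rose and NPR2, EDS1 and TGA2.1 fell, 4 of 14 against 29.1% of all tested loci. In the double mutant alone WRKY76 rose and TGA2.1 fell, 2 of 14 against 31.7%. The call of TGA2.1 in the double mutant was lost in 13 of 25 alternative settings. In the wild type those of EDS1 and TGA2.1 were lost in 7 and 6 of 25.

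Of 16 genes of other PR families, 14 were tested. With heat, averaged over both genotypes, 3 rose and none fell by limma, with a median of 0.68. The same 3 were those at an unadjusted p under 0.05, where 10967 of 20305 tested loci were found in either direction. The share that rose was close to the 22.4% of all tested loci. CHT1, a chitinase, averaged 14.3 ± 4.76 FPKM in dm_45C and 1.3 ± 0.45 FPKM in dm_29C, against 46.0 ± 32.2 FPKM in WT_45C and 2.40 ± 0.14 FPKM in WT_29C (SD, n = 3 each), and it rose by 3.09 ± 0.34 (SE; limma adjusted p = 1.6e-05). The other 2 were LOC_Os01g71350 at 1.9 (limma adjusted p = 0.00104) and LOC_Os11g37950 at 2.22 (limma adjusted p = 0.00119), both chosen after their values were seen. In the wild type alone all 3 passed, where 13.3% of all loci rose. In the double mutant alone only CHT1 passed, at 2.71 (limma adjusted p = 0.00121), where 15.3% of all loci rose. There LOC_Os11g37950 overlapped, at 1.33 to 13.48 FPKM in dm_45C and 0.18 to 1.72 FPKM in dm_29C. PR5, a thaumatin-like protein, was at 11.31, 6.37 and 40.58 FPKM in dm_45C and 4.23, 13.31 and 5.00 FPKM in dm_29C, against 31.91, 1.9 and 399.46 FPKM in WT_45C and 22.85, 13.41 and 13.05 FPKM in WT_29C. Its heat difference was 1.01 (limma adjusted p = 0.379), and WT_45C replicate 3 stood far above all other libraries.

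Genotype differences that passed in these families came from 2 PR1-like loci, averaged over both temperatures, and rested on low or variable values. At an unadjusted p under 0.05, 3 of 14 were higher and 3 lower, against 2512 of 20305 tested loci in either direction. PR4 did not pass, with means of 7.26 FPKM in dm_45C and 7.28 in dm_29C, against 2.43 in WT_45C and 1.59 in WT_29C. In the same order LOC_Os03g46070, which did not pass either, was at 1.21, 2.47, 7.05 and 4.65 FPKM. LOC_Os07g03730, close in number to PR1a, was at 0.86, 1.76 and 0.84 FPKM in dm_45C and 1.36, 1.41 and 1.85 FPKM in dm_29C, against 0.01, 0.43 and 0.15 FPKM in WT_45C and 0.14, 0 and 0.12 FPKM in WT_29C. Averaged over both temperatures its difference was 1.03 ± 0.17 (SE, limma adjusted p = 0.025). LOC_Os01g28500, close in number to PR1b, was at 17.71, 19.40 and 3.38 FPKM in dm_45C and 11.45, 31.37 and 15.53 FPKM in dm_29C, against 2.20, 2.36 and 3.45 FPKM in WT_45C and 3.28, 4.39 and 1.41 FPKM in WT_29C, with a difference of 2.01 ± 0.38 (SE; limma adjusted p = 0.0487). The call was lost in 13 of 23 alternative settings for LOC_Os07g03730 and in 20 of 24 for LOC_Os01g28500, with adjusted p up to 0.191 and 0.134 by limma. LOC_Os07g03740, another neighbour of PR1a by number, was at 1.76 to 4.26 FPKM in dm_45C and 2.59 to 3.35 FPKM in dm_29C, against 0.41 to 1.05 FPKM in WT_45C and 0.66 to 1.15 FPKM in WT_29C. Its difference was 1.12 (limma adjusted p = 0.0269), and it was chosen after its values were seen.

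Jasmonate genes, which bear on the name of JIOsPR10, were lower with heat where they passed: 6 of 9 fell and none rose by limma, averaged over both genotypes, with a median of -0.77, where 24.7% of all tested loci fell. At an unadjusted p under 0.05, 7 of 9 were lower and none higher, where 10967 of 20305 tested loci were found in either direction. The call of MYC2, among the 6, was lost in 13 of 24 alternative settings (limma adjusted p up to 0.178). Over the alternative settings 5 to 7 of the list were called lower. COI1a, a jasmonate receptor subunit, averaged 24.8 ± 5.46 FPKM in dm_45C and 57.0 ± 8.05 FPKM in dm_29C, against 25.2 ± 1.59 FPKM in WT_45C and 46.7 ± 5.90 FPKM in WT_29C (SD, n = 3 each), and fell by 1.02 on the log2 scale (limma adjusted p = 5e-05). OPR7, an enzyme of jasmonate synthesis, fell by 0.68 (limma adjusted p = 0.000352), and the receptor subunit COI1b had a difference of 0.02 (limma adjusted p = 0.933). Jasmonate itself was not measured.

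Of 8 genes of pattern-triggered immunity, the response to microbial surface molecules, 1 rose and 3 fell with heat averaged over both genotypes, with a median of -0.03, and the 4 of 8 called were near the 47.1% of all tested loci. The gene that rose was CEBiP, a chitin receptor, at 36.4 ± 20.2 FPKM in dm_45C and 13.4 ± 0.774 FPKM in dm_29C, against 40.3 ± 7.89 FPKM in WT_45C and 13.6 ± 2.07 FPKM in WT_29C (SD, n = 3 each), a difference of 1.37 (limma adjusted p = 0.000171). MPK6, a mitogen-activated protein kinase, fell by 0.40 (limma adjusted p = 0.0185), a call lost at an adjusted p of 0.157 without all 4 replicate 3 libraries. In the wild type alone MPK6 passed at -0.52 (limma adjusted p = 0.0432), a call lost in 11 of 25 alternative settings. In the double mutant alone MPK6 did not pass. The scaffold RACK1A had a difference of -0.13 (limma adjusted p = 0.588). In the genotype comparisons at 29 °C and 45 °C and in the difference of heat responses, none of the 4 lists had a gene that passed by limma; an unadjusted p under 0.05 was found in 3 of the 14 other PR genes at 29 °C, all higher in the libraries labelled double mutant, and in 7 at 45 °C, 3 of them higher and 4 lower there, with a list median of -1.17 at 45 °C. Over all tested loci it was found in 1985 at 29 °C and in 1618 at 45 °C. It was also found in 1 salicylic acid gene and 1 gene of pattern-triggered immunity at 45 °C, and in 1 jasmonate gene at 29 °C. For the difference of heat responses it was found in 1 salicylic acid gene, 1 other PR gene and 2 jasmonate genes, and in 1039 of all 20305 tested loci.

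**Figure D4:**
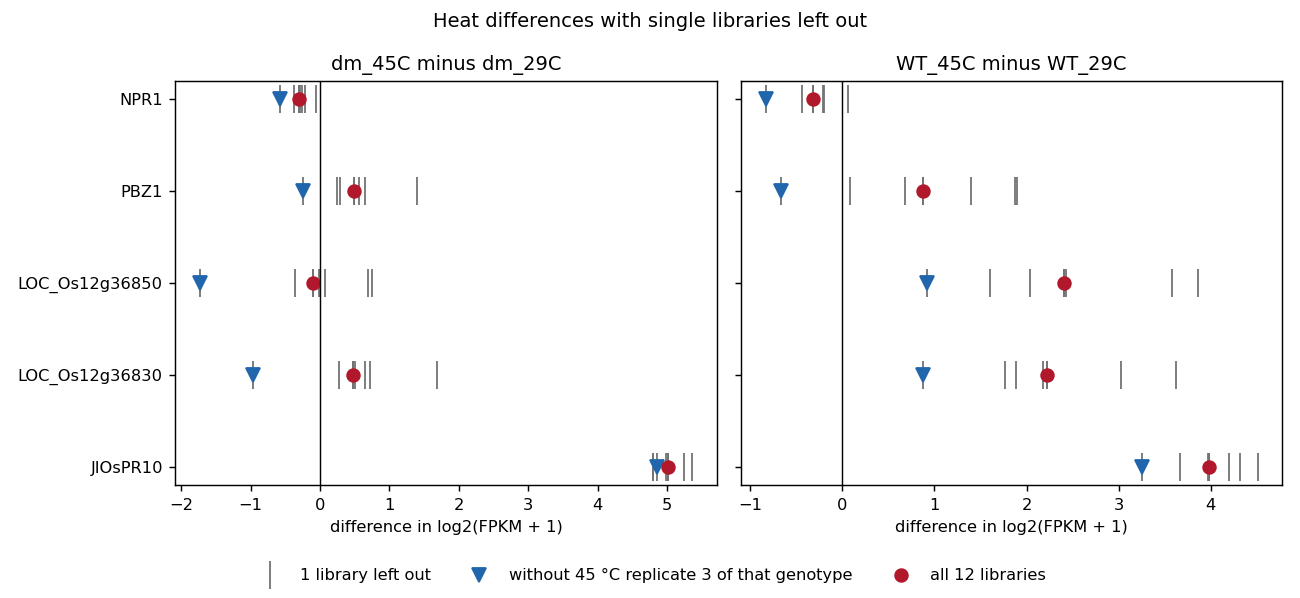
Heat difference in log2(FPKM + 1) of the 5 tested genes, double mutant on the left and wild type on the right, with all libraries and with 1 library left out at a time. JIOsPR10 stays between 4.79 and 5.36 in the double mutant and between 3.25 and 4.51 in the wild type, while PBZ1 moves between -0.24 and 1.39 and between -0.66 and 1.89.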

How the data were processed

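The deposited table holds FPKM per locus, per the file headers, with 1 column for each of the 12 libraries. Per the submitters' processing notes, the tools were StringTie 1.3.4d, HISAT2 2.0.4, edgeR, DESeq2, UMI-tools and cutadapt 1.9, with no roles stated. No coordinates are printed, since the sources used here give neither build nor annotation, and FPKM give no read depth.

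From these values log2(FPKM + 1) was computed for loci with 1 FPKM or more in at least 3 libraries. All 12 libraries entered 1 fit of 4 group means with limma 3.58.1 in R 4.3.3 (statmod 1.5.0; variance trend on mean level), which was tested on simulated data. There were 7 comparisons, each with Benjamini-Hochberg adjustment over 20305 loci. Members and lists were chosen with earlier results of these data known. Named were all members, the 3 most abundant genes of each list and listed genes that passed between genotypes. The 3 loci outside the members most like each tested member were named as well. Names were typed in from published locus assignments; of 57 named loci, 36 names are in RefSeq, 35 of them on the same chromosome.

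Replicate numbers were checked as pairs: same-numbered dm_45C and WT_45C libraries deviated together (r = 0.106, 0.293 and 0.141), and in the other comparisons of groups not every pair did. Alternatives were other scalings, pseudocounts, filters, the replicate block, fewer groups, and libraries left out.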

Additional observations from a re-analysis of the deposited data

How the results depend on the processing

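Among the members, 809 of 864 alternative values kept their direction and side of the threshold, 51 reversed and 4 newly passed; no call of JIOsPR10 was lost. The number of members called with heat was 2 in the wild type without both 45 °C replicate 3 libraries. Averaged over genotypes it was 2 without WT_45C replicate 3 (1 to 2 over single libraries left out), without both 45 °C replicate 3 libraries and without all 4 replicate 3 libraries.

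Without all 4 and without both 45 °C replicate 3 libraries, PBZ1 with heat was -0.16 and -0.24 in the double mutant, -1.46 and -0.66 in the wild type, and -0.81 and -0.45 on average, with 1.3 and 0.43 for the difference of responses. LOC_Os12g36830 was -0.94 and -0.97 in the double mutant and -0.26 and -0.0471 on average, LOC_Os12g36850 was -0.94 and -0.41 on average, and NPR1 between genotypes at 45 °C was 0.0886 in both and 0.0134 averaged over temperatures without all 4. Without both replicate 1 libraries labelled double mutant, the genotype difference at 29 °C was 0.12 for JIOsPR10 and 0.0011 for LOC_Os12g36830, the difference of responses of PBZ1 was 0.28, and the heat difference of LOC_Os12g36850 in the double mutant was 0.78. With 0.1 added, JIOsPR10 at 29 °C was 0.0748 between genotypes. The difference of responses of NPR1 was -0.0204 with median-of-ratios and -0.0284 with quantile scaling. The cause was not tested.

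Over single libraries left out, heat in the double mutant ranged from -0.24 to 1.39 for PBZ1, -0.97 to 1.68 for LOC_Os12g36830 and -1.73 to 0.74 for LOC_Os12g36850. Heat in the wild type ranged from -0.83 to 0.0664 for NPR1 and -0.66 to 1.89 for PBZ1, and its average from -0.0908 to 1.19 for PBZ1. Between genotypes at 45 °C the range was -0.53 to 0.37 for NPR1 and -0.48 to 2.07 for PBZ1. At 29 °C it was -0.66 to 0.61 for LOC_Os12g36830, -0.14 to 1.83 for LOC_Os12g36850 and -0.41 to 0.25 for JIOsPR10. Averaged over temperatures it was -0.35 to 0.10 for NPR1 and -1.41 to 0.15 for LOC_Os12g36850. The difference of responses was -0.36 to 0.54 for NPR1 and -1.41 to 1.15 for PBZ1.

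With the replicate block, JIOsPR10 kept 5.00 in the double mutant and 3.99 in the wild type, and no call of a member changed; over all loci the difference of responses had 1 call, against 3 without it. Over all settings the calls among all loci were 1 to 44 between genotypes at 45 °C, 4 to 64 at 29 °C, 0 to 11 for the difference of responses and 17 to 105 averaged over temperatures. With heat they were 3689 to 7483 in the double mutant and 3853 to 6842 in the wild type. With 3 libraries a group and no read counts, low genes such as PR1a and PR1b could not be judged.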
